A study of Mus musculus with 223 samples.

Results

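The Dlx genes Dlx1, Dlx2, Dlx5 and Dlx6 and the antisense transcripts annotated beside them, Dlx1as, Dlx6os1 and Dlx6os2, were followed through single Htr3a-GFP+ cortical interneurons (INs). The 7 genes were taken by name out of 43629 genes in the count table. The cells came from mice on a C57BL/6 background that carry enhanced GFP under the regulatory sequences of Htr3a, the gene of the ionotropic serotonin receptor subunit 3A, a reporter that marks preferentially INs of the caudal ganglionic eminence (CGE). Untreated embryos and pups of both sexes were pooled at each age, whole cortices were dissociated, GFP+ cells were sorted and each was captured on a C1 microfluidic chip, lysed and turned into cDNA with the SMARTer chemistry. The series holds 82 E18 cells, 66 P2 cells and 75 P5 cells. The authors assigned 22, 31 and 13 of the P2 cells and 34, 19 and 22 of the P5 cells to type 1, type 2 and type 3 INs, and gave E18 cells no type. Every group carries the reporter, so there is no GFP-negative or wild-type group. Each age is 1 pool, cells are not replicates, and no difference between groups below was checked in replicates or given a p-value.

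Dlx genes encode homeodomain transcription factors related to Distal-less of the fly. In the mouse forebrain they act in the ganglionic eminences, where Dlx1 and Dlx2 come on early in progenitors and Dlx5 and Dlx6 follow in cells that leave the cell cycle, and together they drive the GABAergic fate and the tangential migration of INs. The genes lie in convergently transcribed pairs that share enhancers between and beside the genes, and DLX1 and DLX2 proteins are known to bind the enhancers of the Dlx5 and Dlx6 pair. Both pairs also give rise to long noncoding RNAs from the opposite strand. Dlx6os1, also called Evf2, is transcribed across an ultraconserved enhancer and is known to bring DLX proteins to it, while Dlx1as is known to limit Dlx1 mRNA.

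Read pairs are assigned to these genes by their exons, and the layout of the exons decided what each count could mean. In the GENCODE M21 annotation of build GRCm38, Dlx1 occupies chr2:71528113-71533981 on the plus strand and Dlx2 chr2:71543408-71546754 on the minus strand, 9426 bases apart. Dlx1as spans chr2:71516454-71537891 on the minus strand with 6 exons, and 335 of its 1630 exonic bases are also exon of Dlx1. Of the other exonic bases of Dlx1as, 565 lie in introns of Metap1d, a plus-strand gene of a mitochondrial methionine aminopeptidase. On the other chromosome, Dlx6 occupies chr6:6863334-6868568 on the plus strand and Dlx5 chr6:6877805-6882085 on the minus strand, 9236 bases apart. Dlx6os1 spans chr6:6820189-6871592 on the minus strand, and all 5173 of its exonic bases lie outside the Dlx6 gene, which sits in an intron of the antisense transcript. Dlx6os2, a single-exon model at chr6:6863797-6865150, lies wholly within Dlx6. Of its 1354 bases 1250 are intron of Dlx6 and 104 are exon of it. The kit does not mark strand, so reads of Dlx6os2 and of unspliced Dlx6 cannot be told apart. Dlx1 likewise lies wholly within the span of Dlx1as. Reads of unspliced Dlx6os1 on Dlx6 exons, and of unspliced Dlx1as on Dlx1 exons, therefore cannot be told from reads of the sense gene either.

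**Figure D1:**
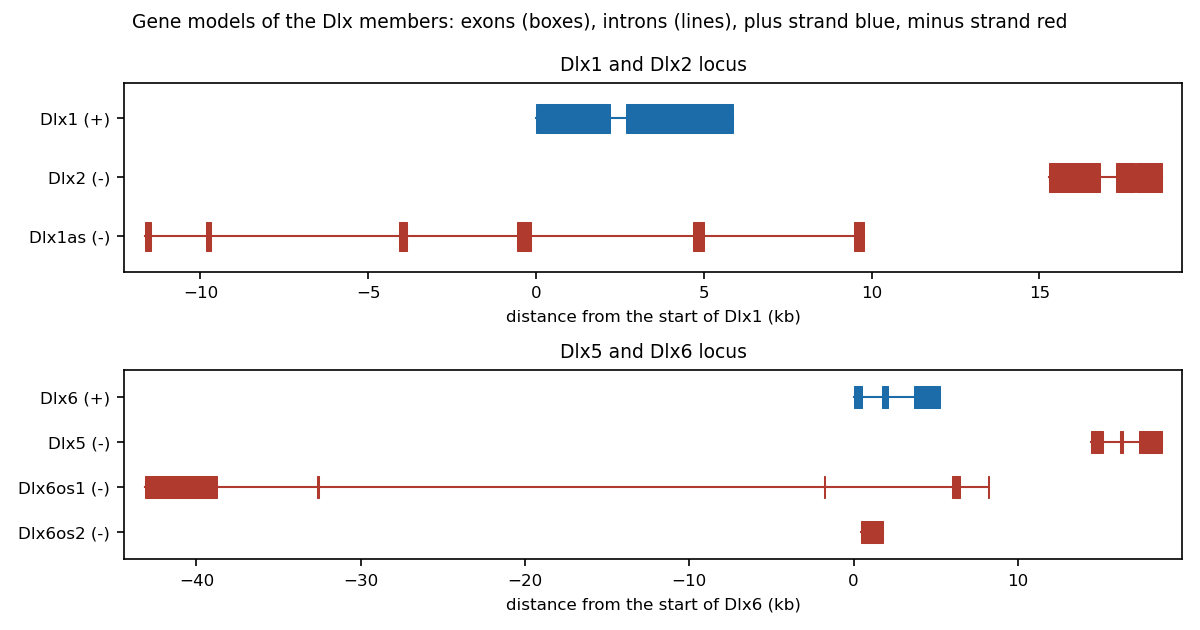
Exon maps of the Dlx1 and Dlx2 locus (top) and the Dlx5 and Dlx6 locus (bottom), with distance in kb from the start of Dlx1 or Dlx6 on the x axis, boxes for exons, lines for introns, blue for the plus strand and red for the minus strand. Dlx1as shares 335 exonic bases with Dlx1, Dlx6os1 shares none with Dlx6, and Dlx6os2 lies inside Dlx6.

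Sequence before RefSeq start sites of the members is shown because DLX proteins bind AT-rich sites with a TAAT core, so the antisense transcripts can be set beside a sense gene. RefSeq start sites of assembly GRCm38.p6 were available for 4 of the 7 genes (Dlx1, Dlx2, Dlx6os1 with 2 starts, and Dlx6os2), and for Dlx5, Dlx6 and Dlx1as none was matched. The motif searched was TAATTA, which is its own reverse complement and therefore reads the same on both strands. It occurs in 4.84% of 32851 windows of the 250 bases before a RefSeq start, and 2 of the 5 windows of the members hold it, both of them before Dlx6os1. The windows of Dlx6os1 are chr6:6869534-6869783 and chr6:6861684-6861933 on the minus strand, with 33.2% and 34% G and C, and the window of Dlx2 is chr2:71546755-71547004 on the minus strand, with 66.4%, against a median of 52.4% over all windows. In the GENCODE model, which begins farther upstream, the first window of Dlx6os1 lies within an exon of that gene and the second within an intron. The sites start at positions -130 and -74 before the first RefSeq start of Dlx6os1 and at -174 before the second, and they stand in capitals below. The match describes these letters and not a bound site.
Dlx6os1 start 1: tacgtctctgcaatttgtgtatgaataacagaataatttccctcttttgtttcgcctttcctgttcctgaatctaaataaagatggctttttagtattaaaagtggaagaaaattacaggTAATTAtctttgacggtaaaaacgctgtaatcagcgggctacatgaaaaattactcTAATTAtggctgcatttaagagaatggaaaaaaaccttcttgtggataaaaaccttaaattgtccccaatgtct
Dlx6os1 start 2: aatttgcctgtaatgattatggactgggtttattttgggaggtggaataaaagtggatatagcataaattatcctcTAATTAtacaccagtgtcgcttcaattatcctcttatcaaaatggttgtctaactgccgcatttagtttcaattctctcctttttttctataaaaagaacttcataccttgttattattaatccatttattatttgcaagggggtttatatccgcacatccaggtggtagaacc
Dlx2: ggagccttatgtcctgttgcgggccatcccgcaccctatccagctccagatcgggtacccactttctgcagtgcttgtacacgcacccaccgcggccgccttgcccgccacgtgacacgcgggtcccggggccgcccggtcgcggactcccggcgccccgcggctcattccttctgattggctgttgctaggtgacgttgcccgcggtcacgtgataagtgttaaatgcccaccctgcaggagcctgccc

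Depth, strand and cell identity were checked first. Mapped read pairs per cell ranged from 3707601 to 15840130, and the medians of the ages lay between 8931262 and 9640275. Values are in RPM, the count of read pairs relative to all mapped read pairs of the cell. The median share of mapped read pairs that fell on genes was between 44.4% and 58.6% in 6 of the 7 groups and 32.1% in P5 type 3 INs, so RPM there is spread over fewer genic reads. In 142 of the cells more than 50% of mapped read pairs were counted on genes. Of 128 genes lying wholly inside exons of a well-covered gene on the opposite strand, 13 had any read pair, 30522 against 21478053 in the genes around them, and of 102 genes nested in the same way on the same strand 18 had any. Gad1 or Gad2, which make GABA, exceeded 10 RPM in 77 of the 82 E18 cells, 59 of the 66 P2 cells and 74 of the 75 P5 cells. At least 2 markers of another cell type exceeded 10 RPM in 14 cells at E18, all by excitatory neuron markers, in 2 at P2 and in 8 at P5, of which 5 were type 2 INs. Each cell label also names 1 of 4 library sets, written A to D below, and the sources used here do not say what a set is. P2 is made up of set A alone, and the E18 and P5 cells fall in the remaining sets, so the age P2 and set A cannot be told apart. According to the methods every cell held reads of at least 1 gene among Gad1, Gad2 and the 4 sense Dlx genes.

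Dlx1 was the sense gene above 10 RPM in most cells of each age. Its pooled level, the summed read pairs over the summed mapped read pairs, was 150 RPM at E18 (exact 95% Poisson interval 149 to 151), which like all intervals here covers counting error only, because PCR copies without molecular identifiers are not independent molecules. At P2 it was 75 RPM (73.9 to 76.2) in type 1, 68.7 RPM (67.7 to 69.6) in type 2 and 240 RPM (237 to 243) in type 3 INs. At P5 it was 159, 196 and 137 RPM in the same order. Each age had cells at 0, the median cell of E18, P2 and P5 held 78.3, 20.3 and 80.5 RPM, and the highest held 2035, 674 and 890 RPM, so the ranges of the ages overlap almost completely. The share of type 3 INs above 10 RPM, the level the methods take as expression, was 86.4% at P5 (exact 95% binomial interval 65.1 to 97.1) and that of P2 type 2 INs was 45.2% (27.3 to 64). Those were the highest and the lowest shares of Dlx1, and among the 21 pairs of groups only this pair had intervals that do not overlap. Within P5 the pooled level was 51.2 RPM in library set B, 176 RPM in set C and 201 RPM in set D.

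Dlx2, which acts upstream with Dlx1 in progenitors, was at 38.1 RPM at E18 (37.7 to 38.6). It was at 42.2 RPM (41.3 to 43.1) in P2 type 1 INs, at 16.0 RPM (15.5 to 16.4) in P2 type 2 INs and had 0 read pairs in all 13 P2 type 3 INs, where a count of 3 would be 0.0360 RPM. At P5 it was at 83.7 RPM (82.7 to 84.7) in type 1, 15.2 RPM in type 2 and 22 RPM in type 3 INs. The median cell held 1.52 RPM at E18, 0.308 in P2 type 1 INs and 24 in P5 type 1 INs, and the highest cells held 339, 228 and 790 RPM. Dlx2 exceeded 10 RPM in 52.9% of P5 type 1 INs (35.1 to 70.2) and in 0 of 13 P2 type 3 INs, which, with 3 cells as the limit of a count of 0, allows a share of up to 23.1%. In P2 type 2 INs 63.2% of its read pairs came from 1 cell, and in P5 type 3 INs 56.7%.

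Dlx5, a gene of differentiating INs, had its highest pooled level in P5 type 1 INs, at 272 RPM (271 to 274), against 114 RPM (113 to 116) in type 2 and 29.4 RPM (28.6 to 30.3) in type 3 INs. At P2 it was 154, 42.9 and 82.3 RPM in types 1, 2 and 3, and at E18 52.1 RPM. The median P5 type 1 cell held 169 RPM and the median cell of P5 types 2 and 3 held 24.2 and 2.54 RPM. The highest cells of the 3 types held 1283, 899 and 179 RPM, and each type had cells at 0. The share above 10 RPM was 79.4% in P5 type 1 INs (62.1 to 91.3) and 18.2% in P5 type 3 INs (5.19 to 40.3). The interval of P5 type 1 INs also lay above those of E18 and of P2 types 1 and 2. Much of the pooled level rested on few cells at P2, where 2 of 66 cells held 50% of the Dlx5 read pairs and 7 held 90%, and 1 cell held 91.7% of those in type 2 INs.

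Dlx6 differed from the other sense genes in that low counts of it were present in almost every cell. At least 1 read pair was found in all but 3 cells, while Dlx1, Dlx2 and Dlx5 were at 0 in 20, 92 and 59 cells. Its median cell nevertheless held only 1.10, 1.23 and 4.48 RPM at the 3 ages in order, while their highest cells held 129, 234 and 393 RPM. The pooled level was 5.32 RPM at E18 (5.16 to 5.48), 24.9, 11.8 and 2.09 RPM in P2 types 1, 2 and 3, and 33.4, 37.7 and 18.9 RPM in P5 types 1, 2 and 3. The share above 10 RPM was highest in P5 type 2 INs at 47.4% (24.4 to 71.1), and E18 at 9.76% (4.31 to 18.3) was the other group of the single pair whose intervals do not overlap.

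Dlx1as was highest in type 2 INs at both postnatal ages. It was at 65.7 RPM (64.5 to 66.8) in P5 type 2 INs, against 16.5 RPM (16.1 to 17) in type 1 and 29.3 RPM (28.5 to 30.1) in type 3 INs. At P2 it was 15.2, 39.8 and 14.6 RPM in types 1, 2 and 3, and at E18 32.3 RPM. The median cell held 59 RPM in P5 type 2 INs, 0.0481 in type 1 and 0.806 in type 3 INs, while the highest cells of the 3 types, 224, 225 and 304 RPM in the order of types 2, 1 and 3, overlapped. It exceeded 10 RPM in 68.4% of P5 type 2 INs (43.4 to 87.4) and in 23.5% of P5 type 1 INs (10.7 to 41.2). Metap1d, whose introns hold part of Dlx1as, was also more than 2-fold higher in type 2 than in the other types, by 1.10 at P2 and 1.34 at P5 on the log2 scale. Its part in the Dlx1as level was not tested.

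Dlx6os1 collected the most read pairs of the 7 genes, 552551 of them, against 290700 for Dlx1, the next. Its pooled level was 222.96 RPM at E18 (222 to 224), 382, 201 and 81.4 RPM in P2 types 1, 2 and 3, and 444, 280 and 107 RPM in P5 types 1, 2 and 3, so that type 1 was the highest and type 3 the lowest at both postnatal ages. The median cell held 286 RPM in P5 type 1, 79 in type 2 and 20.5 in type 3 INs, and the highest cells held 2051, 1655 and 677 RPM. It exceeded 10 RPM in 88.2% of P5 type 1 INs (72.5 to 96.7) and in 30.8% of P2 type 3 INs (9.09 to 61.4). A second identifier of the same name, ENSMUSG00000098326, is a short RNA model at the start of Dlx6os1 that shares 104 of its 146 bases with it, and its 19491 read pairs were kept apart.

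Dlx6os2 was the sparsest of the genes, with 15592 read pairs. It was at 2.33 RPM at E18, 7.57 and 12.4 RPM in P2 types 1 and 2, and 13.0, 12.4 and 8.80 RPM in P5 types 1, 2 and 3, and P2 type 3 INs held 2 read pairs. At each age the median cell was at 0 and 2 cells held 50% of its read pairs, and no pair of groups had shares whose intervals do not overlap. Dlx3 and Dlx4, members of the family best known from epithelia and skeleton, had 278 read pairs, all in 1 P2 type 1 cell, and 0 read pairs. For every one of the 7 genes, groups that were neighbours in the order of the shares had overlapping intervals.

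**Figure D2:**
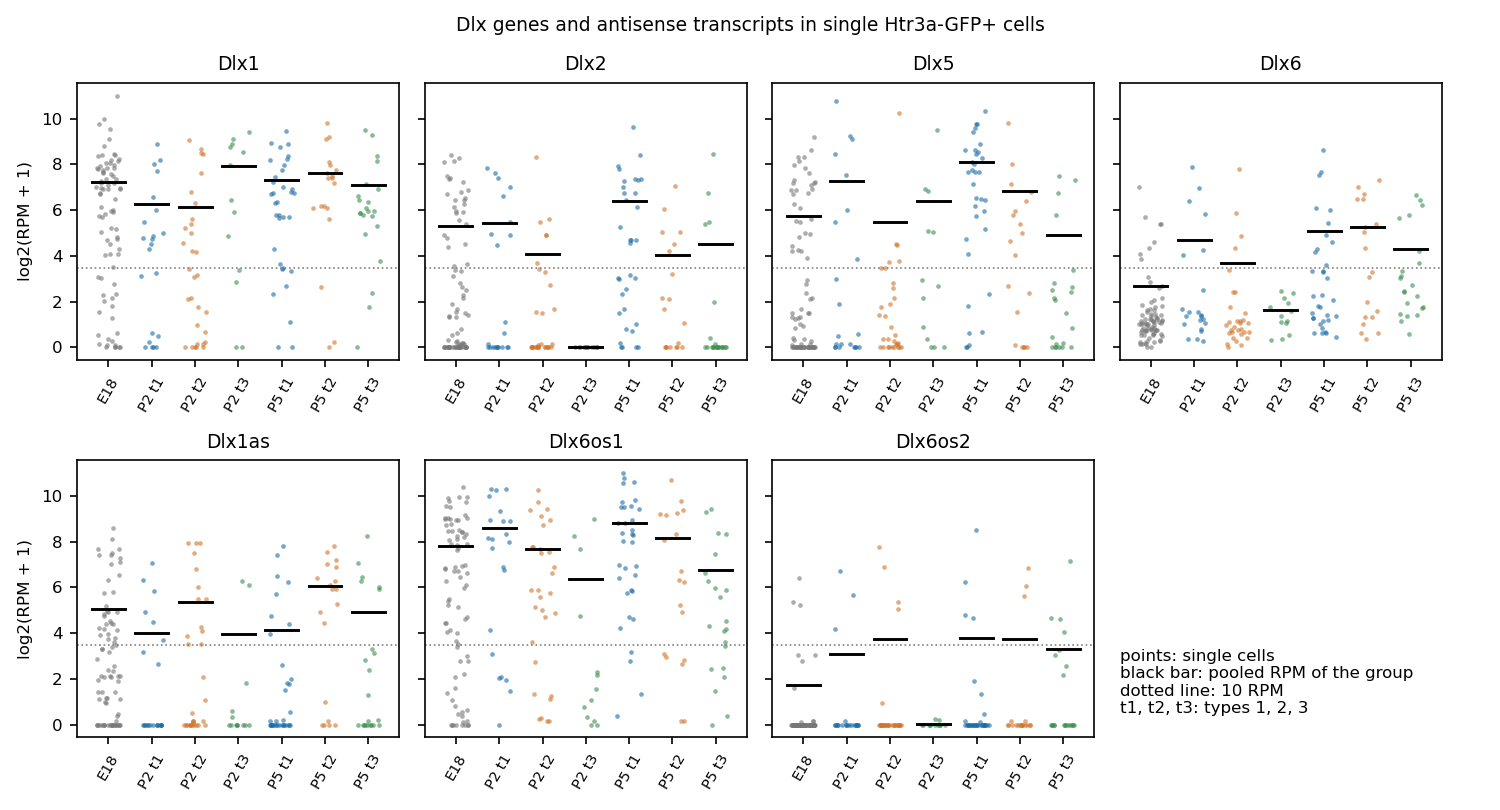
Level of each of the 7 genes in every cell as log2(RPM + 1) on the y axis, by group on the x axis (E18, and types 1, 2 and 3 at P2 and P5), with a black bar at the pooled RPM and a dotted line at 10 RPM. Cells of every group spread from 0 or near 0 upward, Dlx2 is at 0 in all 13 P2 type 3 INs, and Dlx6 sits low but above 0 in nearly all cells.

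The types were then compared within an age, on the log2 scale, as the ratio of pooled RPM after adding 1 RPM. The authors drew the types from these same counts, Dlx genes included, so a difference between types is a description. In P2 type 1 INs, 4 of the 7 genes were at least 2-fold higher than in the other P2 types (17.1% of 5962 genes were) and 1 was lower (28.1% were). Dlx2 was at 42.2 against 12.6 RPM, a log2 fold of 1.67, Dlx5 at 1.56, Dlx6 at 1.27 and Dlx6os1 at 1.12, and Dlx1as at -1.13. Without the highest cell of the type Dlx5 stood at 0.76, Dlx6 at 0.60 and Dlx6os1 at 0.97. In P5 type 1 INs 3 genes were higher (22.9% of 6877 genes were) and 1 lower (19.7% were), with Dlx2 at 2.12, Dlx5 at 1.89, Dlx6os1 at 1.18 and Dlx1as at -1.49. Of these, Dlx1as was within 2-fold at P2 under 5 of 9 alternatives, with -0.91 by edgeR TMM and -0.40 as a difference of mean log2 values, and at P5 within library set D, at -0.57. Dlx6os1 at P5 was at 0.96 with total counts on genes as the library size. Dlx2 stayed past 2-fold under every alternative tried at both ages, from 1.21 to 2.91 at P2 and from 1.52 to 4.72 at P5. Dlx5 at P5 turned to -0.86 within library set B, where the other types comprise 4 cells and 1 of the 2 type 2 INs raised their pooled level to 597 RPM, and was 3.93 in set C and 3.07 in set D.

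In type 2 INs the gene past 2-fold at both ages was Dlx1as, at 1.35 at P2 and 1.61 at P5, with 0.99 at P2 with a pseudocount of 10 RPM and 0.94 at P5 within library set D. At P2, Dlx6os2 was also higher at 1.04 and was at 0.03 without its highest cell, so that 2 genes were higher (25.3% of all tested were) and 1, Dlx5 at -1.62 and at -0.99 with the top cell among the remaining types left out, was lower (16.9% were). At P5, 1 gene was higher (21.8% were) and 1, Dlx2 at -1.98 and at -0.84 as a difference of mean log2 values, was lower (18.1% were). Without the 5 P5 type 2 INs that held 2 or more markers of another cell type, a selection made after seeing the data, Dlx1as was at 82.4 instead of 65.7 RPM.

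In type 3 INs most of the genes were on the low side, as were genes in general. At P2, 4 of the 7 were at least 2-fold lower (50.1% of all genes were) and 1 was higher (15.6% were), and the median log2 fold of all genes was -1.01. Dlx1 was the one on the high side, at 240 against 71.3 RPM, a log2 fold of 1.74 that stayed between 1.48 and 2.64 under the alternatives. Dlx2 was 28.0-fold lower with the added 1 RPM. Without it Dlx2 was at least 751-fold lower, taking 3 read pairs in the 13 cells together as the floor. Dlx6os2 was 11.1-fold lower with the added 1 RPM, and 431-fold lower without it, with a counting interval of 119 to 3559. Over all 66 P2 cells, Dlx2 was at 0 in 39 and Dlx6os2 in 55, a spread between cells that neither value without the added RPM covers. Dlx6 was at -2.57 and at -0.56 as a difference of mean log2 values, and Dlx6os1 was at -1.76 and at -0.85 with DESeq2 size factors. At P5, 0 genes were higher (12.1% were) and 3 were lower (45.8% were), against a median of -0.81. Dlx5 at -2.84 and Dlx6os1 at -1.85 stayed past 2-fold under every alternative, and Dlx2 at -1.41 did not, at -0.68 with total counts on genes as the library size. Dlx1 was at -0.33 in P5 type 3 INs, so the P2 difference of Dlx1 in this type was not seen at P5.

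**Figure D3:**
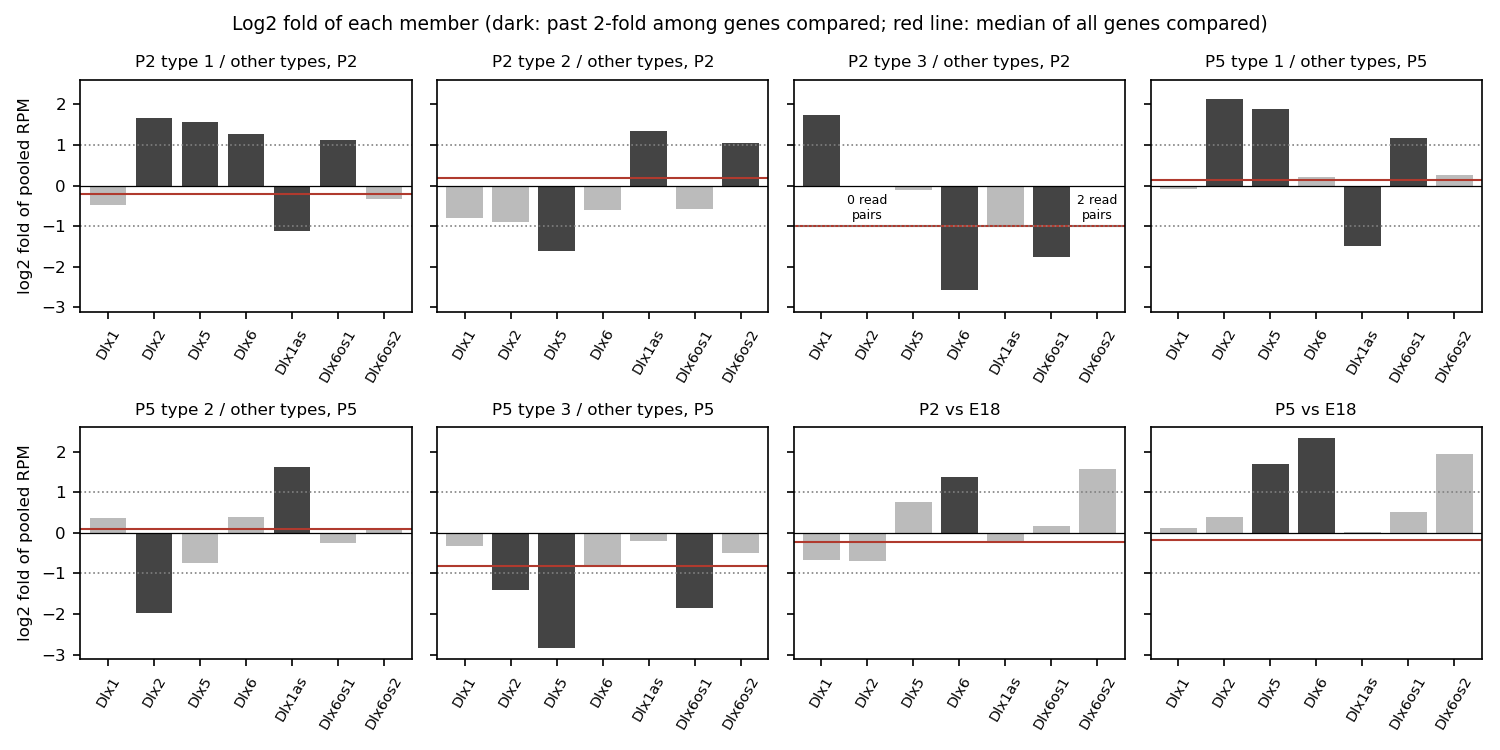
Bars of the log2 fold of pooled RPM (after adding 1 RPM) of each of the 7 genes, in each type relative to the remaining cells of that age and in P2 and P5 against E18, dark where past 2-fold, with dotted lines at 2-fold and a red line at the median of all genes tested. Dlx2, Dlx5 and Dlx6os1 lie past 2-fold higher in type 1 INs at P2 and P5, Dlx1as does in type 2 INs, and for genes with 0 or 2 read pairs the read pairs are printed in place of a bar.

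Across ages, over all cells of an age because E18 cells carry no type, Dlx5 and Dlx6 had the largest folds at P5 among the 6 genes detected often enough to be tested. Dlx6 went from 5.32 RPM at E18 to 15.2 RPM at P2 and 30.9 RPM at P5, log2 folds over E18 of 1.36 and 2.34. Dlx5 went from 52.1 RPM to 88.4 and 171 RPM, log2 folds of 0.75 and 1.70. At P2, 1 of 6 genes tested was at least 2-fold higher (8.76% of 6805 genes were) and 0 were lower (19.3% were). At P5, 2 of 6 were higher (9.19% of 7168 genes were) and 0 were lower (17.4% were), while the median of all genes was -0.18. Both P5 folds stayed past 2-fold under every alternative, Dlx5 between 1.16 and 2.11 and Dlx6 between 1.42 and 3.21, and the P2 fold of Dlx6 did not, at 0.39 as a difference of mean log2 values. Dlx1, Dlx2, Dlx1as and Dlx6os1 were within 2-fold at P5 over all cells, at 0.12, 0.40, 0.01 and 0.51, but not within each library set. Dlx1 was at 147.6 RPM at E18 and 51.2 RPM at P5 in set B. In set C, which has 9 E18 cells, Dlx2 was at 25.4 RPM at E18 and 87.2 RPM at P5, and Dlx1as at 36.7 and 5.18 RPM. In set D Dlx6os1 was at 172 and 347 RPM. Dlx6os2 was too sparse to be tested, with log2 folds of 1.57 and 1.94. Markers of another IN lineage moved with age, since at least 2 of the 4 markers of medial ganglionic eminence (MGE) INs (Lhx6, Nkx2-1, Sst and Satb1) exceeded 10 RPM in 44 of 82 cells at E18, 9 of 66 at P2 and 0 of 75 at P5. Their summed pooled level was 666 RPM at E18, 169 at P2 and 36.8 at P5. At E18 the 40 cells with Lhx6 above 10 RPM held 68.9 RPM of Dlx5 and 4.96 of Dlx6, and the 42 cells without held 35.2 and 5.67 RPM. The part of these cells in the age differences was not tested.

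Antisense and sense levels were compared per exonic base that no other annotated gene shares, as RPM per kilobase. These bases can still lie in introns of another gene, and the part of unspliced reads in the levels was not tested. Dlx6os1 stood above Dlx6 in all 7 groups, at 47.6 against 2.34 RPM per kilobase at E18 (a ratio of 20.3), 53.5 against 6.70 at P2 (7.98) and 67.9 against 13.6 at P5 (4.99). The level of Dlx6os1 was thus higher at P5 than at E18, and that of Dlx6 was higher by more. Within P5 the ratio was 6.45 in type 1, 3.6 in type 2 and 2.75 in type 3 INs. Within P2 the order was reversed, at 7.46, 8.25 and 18.9 in types 1, 2 and 3, the last with 0 cells above 10 RPM for Dlx6. In single cells above 10 RPM for either gene, Dlx6os1 was the higher per base in 57 of 59 cells at E18, 40 of 43 at P2 and 51 of 63 at P5. Most of these cells entered by Dlx6os1, which was above 10 RPM in 58, 43 and 58 of them. In cells above 10 RPM for both genes the median ratio was 2.82 at E18 (7 cells), 3.84 at P2 (10 cells) and 2.06 at P5 (22 cells). It was 2.97, 2.18 and 0.98 in P5 types 1, 2 and 3 (10, 7 and 5 cells). Against Dlx5, its neighbour on the same strand, the ratio of Dlx6os1 was 2.07 at E18, 1.37 at P2 and 0.90 at P5. The median in cells above 10 RPM for both was 0.99, 3.57 and 1.09 (27, 13 and 36 cells). Dlx1as lay closer to Dlx1, at ratios of 0.84 at E18, 0.79, 2.27 and 0.24 in P2 types 1, 2 and 3, and 0.41, 1.31 and 0.84 in P5 types 1, 2 and 3, so that by pooled levels the antisense transcript exceeded the sense gene per base in type 2 INs at both ages. The median ratio in single cells with both genes above 10 RPM did not follow that order, and was 0.74 at E18 (29 cells), 3.81, 1.21 and 2.25 in P2 types 1, 2 and 3 (5, 6 and 2 cells), and 1.18, 1.62 and 4.47 in P5 types 1, 2 and 3 (7, 12 and 5 cells). Of cells with either gene, Dlx1as was the higher per base in 17 of 64 at E18, in 6 of 14, 12 of 21 and 2 of 9 in P2 types 1, 2 and 3, and in 5 of 28, 9 of 17 and 6 of 20 in P5 types 1, 2 and 3. Dlx6os2 per base was at ratios of 0.80, 1.07 and 0.69 to Dlx6 at the 3 ages.

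Above 10 RPM, few cells held all of the sense genes at once. Of all cells, 34 held none of the 4 sense genes above 10 RPM, 69 held 1, 72 held 2, 40 held 3 and 8 held all 4, and the last count was 17 at 5 RPM, 3 at 20 RPM and 99 at 1 read pair. The 8 cells were all of P5, 5 of them type 1 and 3 type 2 INs. Of the 34 cells with none, 26 held Gad1 or Gad2 and 16 held Dlx6os1 above 10 RPM, and every one of them had at least 1 read pair of a sense gene. A gene of the Dlx1 and Dlx2 pair together with a gene of the Dlx5 and Dlx6 pair was seen in 99 cells, the chromosome 2 pair alone in 73 and the chromosome 6 pair alone in 17.

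Above 10 RPM, the convergent partners Dlx5 and Dlx6 met in few cells before P5, though at 1 read pair or more both were present in 52 of 82 cells at E18, 46 of 66 at P2 and 63 of 75 at P5. They were above 10 RPM together in 1 of the 38 E18 cells with either gene (2.63%, 0.0666 to 13.8), 2 of the 27 such P2 cells (7.41%, 0.910 to 24.3) and 18 of the 51 such P5 cells (35.3%, 22.4 to 49.9). Taken separately, Dlx5 exceeded 10 RPM in 37.8%, 28.8% and 56% of the cells of the 3 ages, and Dlx6 in 9.76%, 15.2% and 36%. Dlx6 was above 10 RPM in 3.23%, 10.5% and 42.9% of the Dlx5 cells, against 13.7%, 17% and 27.3% of the cells without Dlx5. Of the 18 P5 cells with both, 11 were type 1, 6 type 2 and 1 type 3. All 11 type 1 INs with Dlx6 at P5 also held Dlx5, as did 69.6% of P5 type 1 INs without Dlx6. Dlx1 and Dlx2 met in 23 of 64 cells at E18, 8 of 43 at P2 and 25 of 65 at P5. Dlx2 was above 10 RPM in 38.3%, 22.2% and 40.3% of the Dlx1 cells, against 18.2%, 23.3% and 23.1% of the cells without Dlx1. Dlx6os1 was above 10 RPM in 7 of the 8 Dlx6 cells at E18, 10 of 10 at P2 and 22 of 27 at P5, against 68.9%, 58.9% and 75% of the cells without Dlx6. Dlx1 was above 10 RPM in 29 of the 33 Dlx1as cells at E18, 13 of 21 at P2 and 24 of 27 at P5, against 63.3%, 51.1% and 79.2% of the cells without Dlx1as.

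**Figure D4:**
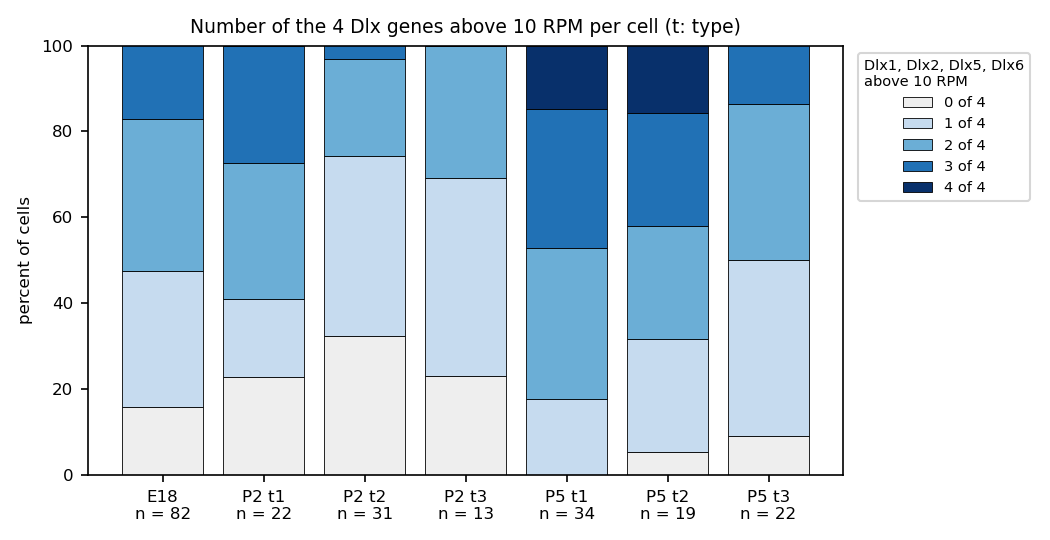
Stacked bars of the percent of cells (y axis) that hold 0, 1, 2, 3 or 4 of the sense genes Dlx1, Dlx2, Dlx5 and Dlx6 above 10 RPM, for each group (x axis, with its number of cells). Cells with all 4 genes are found in P5 types 1 and 2, and 0 of 34 P5 type 1 INs held none.

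Levels of the genes in single cells were set against each other as Pearson correlations of log2(RPM + 1), which describe cells that share a pool. According to the methods the P2 cells came from a single chip and those of each other age from a pair of chips. Among sense and antisense pairs, r over the cells of an age reached 0.3 only for Dlx1 and Dlx1as at E18 and for Dlx6 and Dlx6os1 at P5. Dlx1 and Dlx1as had r of 0.40 over the 82 cells at E18, 0.09 at P2 (66 cells) and 0.15 at P5 (75 cells), and over the 61 E18 cells with a read pair of both genes r was 0.11. Dlx6 and Dlx6os1 had 0.17, 0.26 and 0.31, and -0.29 in the 17 P5 cells of library set C. Dlx6 and Dlx6os2 had 0.21, 0.29 and 0.297. Pairs of overlapping genes on opposite strands anywhere in the genome had median r of 0.05, 0.07 and 0.05 at the 3 ages, and 5.04%, 4.84% and 5.82% of them reached 0.3. The paired sense genes were at similarly low values, Dlx1 and Dlx2 at 0.24, -0.01 and 0.12 and Dlx5 and Dlx6 at -0.12, -0.08 and 0.17. Dlx5 and Dlx6os1, transcribed in the same direction from one locus, had 0.18, -0.06 and 0.42 at the 3 ages. At P5 their r was 0.30 when centred within type and 0.29 over the 62 cells with a read pair of both genes. Of the 21 pairs of members, 1 reached 0.3 at E18, 1 at P2, which was Dlx2 and Dlx5 at 0.32, and 2 at P5. Of all genes tested, between 0.0995% and 3.18% reached 0.3 with a given member at a given age. Dlx1as ranked 5 among 7032 genes by r with Dlx1 at E18, and Dlx6os1 ranked 19 among 6876 by r with Dlx5 at P5, where r was 0.33, 0.72 and 0.37 in library sets B, C and D. In counts this sparse the values under 0.3 are no finding.

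**Figure D5:**
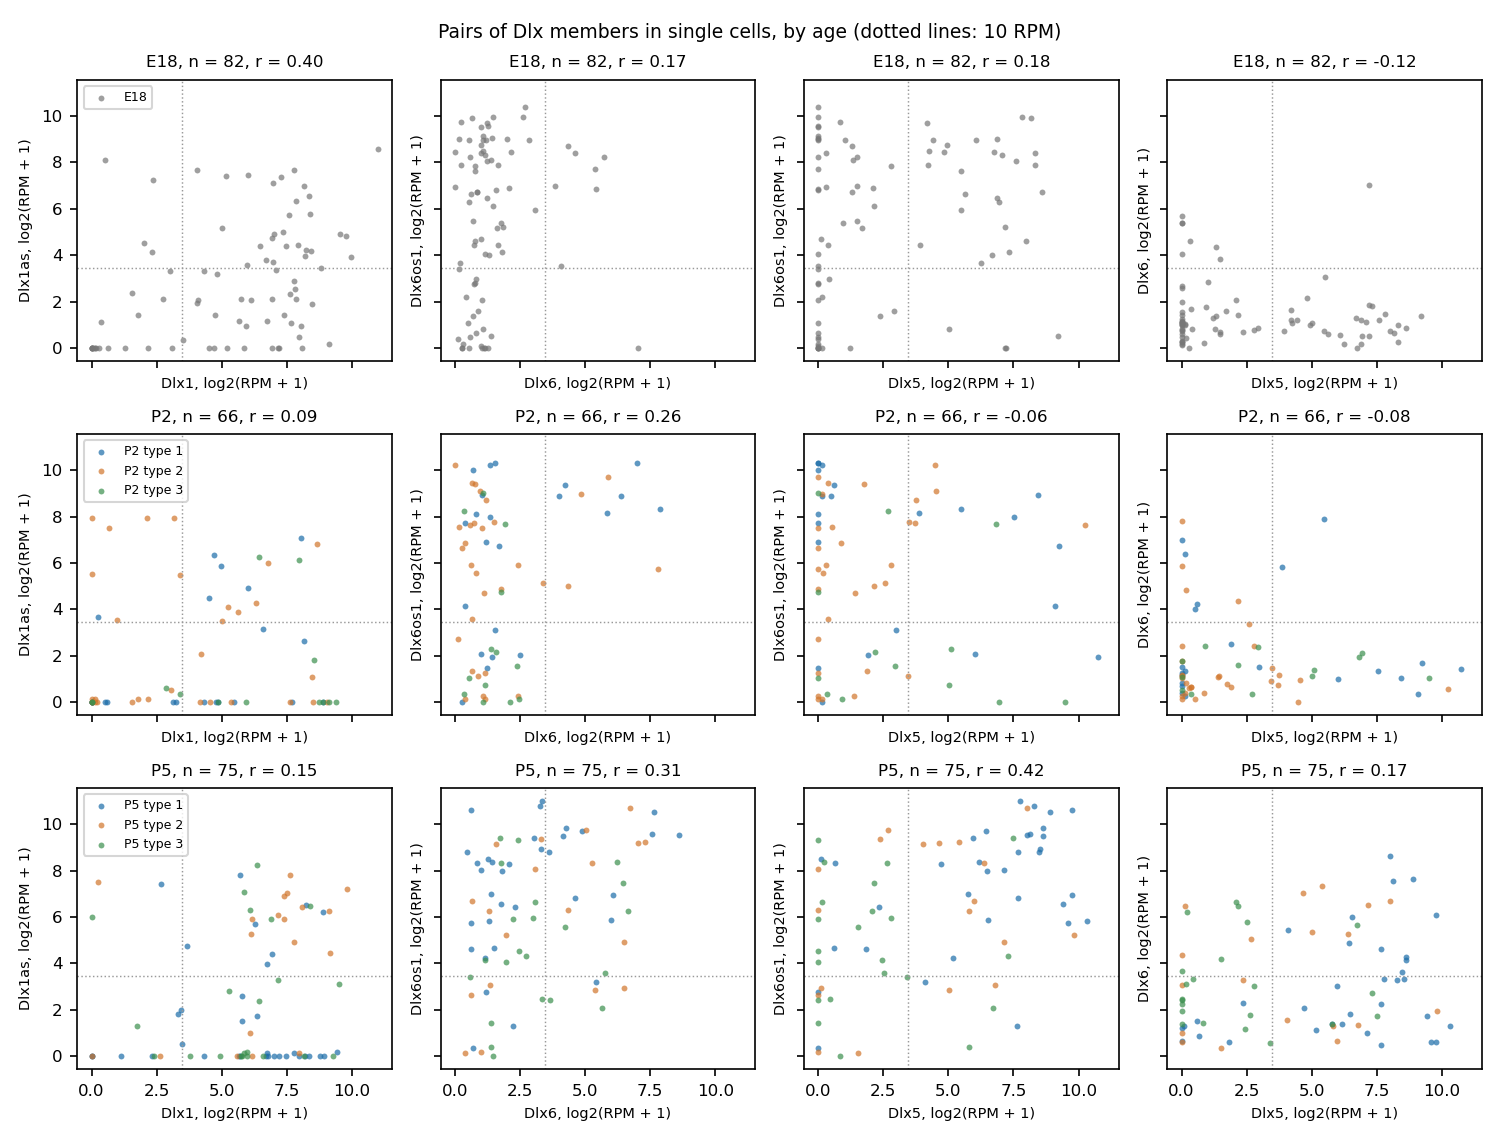
Single cells by log2(RPM + 1) of 2 genes, for Dlx1 and Dlx1as, Dlx6 and Dlx6os1, Dlx5 and Dlx6os1, and Dlx5 and Dlx6 (columns) at E18, P2 and P5 (rows), colored by type, with the Pearson r over each panel and dotted lines at 10 RPM. Many cells lie on an axis, where 1 of the 2 genes is at or near 0, and r of Dlx1 and Dlx1as is 0.40 at E18 and 0.09 at P2.

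The genes most like each member were looked for over the cells of all 3 ages, with levels centred within age, among 6769 genes. The likest to Dlx1as was Metap1d at 0.42 (0.32 at E18, 0.46 at P2 and 0.49 at P5), the gene whose introns it crosses, followed by Gm13509 at 0.28 and the chemokine receptor gene Cxcr4 at 0.27. Metap1d exceeded 10 RPM in 19 of the 27 P5 cells with Dlx1as and in 15 of the 48 without. The likest to Dlx6os1 were its short namesake ENSMUSG00000098326 at 0.42, Htr3a at 0.39 and the neurexin gene Nrxn3 at 0.35. Htr3a drives the reporter on which the cells were sorted, and its r with Dlx6os1 was 0.33, 0.45 and 0.40 at the 3 ages. By type it was 0.50, 0.44 and -0.01 in P2 types 1, 2 and 3, and 0.60, 0.75 and -0.15 in P5 types 1, 2 and 3. For Dlx1 the likest genes were Nrxn3, Magi1 and Vav2 at 0.24, 0.24 and 0.23, for Dlx2 Rpl32, the cyclin gene Ccnd2 and Gm42418 at 0.30, 0.29 and 0.27, and for Dlx5 Nup214, Gm10704 and Med22 at 0.29, 0.28 and 0.27. For Dlx6 they were ENSMUSG00000098326 at 0.27, Dstyk at 0.27 and Dlx6os1 at 0.24, and for Dlx6os2 Chuk, Sass6 and Dlx6 at 0.31, 0.29 and 0.28.

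Genes around the Dlx genes in the pathway were followed from lists. Of 13 genes linked to DLX factors as targets or partners, 10 were tested in P5 type 1 INs, where 5 were at least 2-fold higher (22.9% of all genes were) and 3 lower (19.7%), with a median log2 fold of 0.72 against 0.13 over all genes. The higher ones included Sp8 (2.34), Sp9 (1.28), Etv1 (2.12) and Nrp2 (1.43). Sp8 and Sp9 are zinc finger factors of CGE and olfactory bulb INs, and Nrp2 encodes a semaphorin receptor. The lower ones were Maf (-3.12), Npas1 (-2.86) and Cxcr4 (-2.30). In P2 type 1 INs 3 of 10 were higher (17.1% of all genes) and 3 lower (28.1%). In P5 type 2 INs 2 of 10 were higher (21.8% of all genes), Maf (2.16) and Cxcr4 (1.5), and 2 were lower (18.1%), Sp8 (-1.27) among them. In P5 type 3 INs 1 of 10 was higher (12.1% of all genes), Npas1 at 1.93, and 6 were lower (45.8%). Against E18, 2 of the 12 tested were higher at P5 (9.19% of all genes), Sp8 (2.76) and Etv1 (1.91), and 3 were lower (17.4%), Maf (-1.06) and Ackr3 (-2.71) among them.

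Of 7 partners and targets of Dlx6os1, 6 were tested. The cohesin genes Smc1a and Smc3 were higher in P5 type 1 INs, at 1.55 and 1.74, and lower in P5 type 3 INs, at -3.65 and -3.61, where the chromatin remodeller gene Smarca4 was also lower at -1.15 and Sox2 and Rbm28 were higher at 1.52 and 1.14. These are 2 of 6 higher in P5 type 1 INs (22.9% of all genes), and 3 of 6 lower (45.8%) and 2 of 6 higher (12.1%) in P5 type 3 INs. Of the same list Sox2 and Rbm28 were lower in P5 type 1 INs, at -1.51 and -1.48, while at P2 Sox2 was on the other side, at 1.66 in type 1 and -2.10 in type 3 INs, and was at -1.08 in type 2 INs. Rbm28 was higher in P2 type 3 INs (1.81), where Smc1a was lower (-1.96). Smarca4 was higher in P2 type 1 (1.22) and P5 type 2 INs (1.72) and lower in P2 type 2 INs (-1.70). At P2 or P5 against E18, 0 of 6 were past 2-fold, where 8.76% and 9.19% of all genes were higher and 19.3% and 17.4% lower. Of the GABA genes given here, Gad1, which makes cytosolic GABA, was higher in P2 type 1 INs (1.03) and lower in P5 type 2 INs (-1.14), and Gad2 was lower in P5 type 3 INs (-1.30). The vesicular transporter gene Slc32a1 was higher in P5 type 2 INs (1.02). In the P5 type 1 comparison, where Dlx2 and Dlx5 were higher, Gad1, Gad2 and Slc32a1 all lay within 2-fold. Within 500 kb of Dlx1 and Dlx2, 7 of 22 annotated genes were detected often enough to be tested at any age. In P2 type 2 INs, where Dlx1as was high, all 4 of them that could be tested were higher (25.3% of all genes), Dcaf17 (1.96), Dync1i2 (1.33), Slc25a12 (2.05) and Metap1d (1.10), and in P5 type 2 INs 1 of 7, Metap1d, was higher (21.8% of all genes) and 1, Itga6 at -2.67, was lower (18.1%). In P2 type 1 INs 3 of the 4 were lower (28.1%) and in P2 type 3 INs 2 of the 4 (50.1%). In P5 type 3 INs 3 of the 7 were higher (12.1%) and 1 lower (45.8%), and in P5 type 1 INs 1 was higher (22.9%) and 1 lower (19.7%). Within the same distance of Dlx5 and Dlx6, 1 of 15 genes, Sem1, passed that filter, and it was lower in type 3 INs at P2 (-3.03) and P5 (-1.45), as were 50.1% and 45.8% of all genes. Gsx1 and Gsx2, which act upstream of the Dlx genes in progenitors, were too sparse to be tested.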

How the data were processed

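Read pairs of single-cell libraries (82 at E18, 66 at P2, 75 at P5) were aligned to GRCm38 with TopHat2 and counted per gene with HTSeq 0.6.1, per the submitters' processing notes. The authors deposited raw counts of read pairs for 43629 genes, and gave for every cell the factor for scaling to RPM, relative to mapped read pairs. Whether counting used strand is not given in the sources used here. All columns of cells were used, and no row lacks a gene. The factor was multiplied with the count. Gene models came from GENCODE M21, which is newer than the Ensembl release the authors used, and it names 42548 of the identifiers.

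Each age is 1 pool, so no test was made. Summed counts have exact 95% Poisson intervals, shares have exact 95% Clopper-Pearson intervals, and a count of 0 is given against a floor of 3. Folds were taken on the log2 scale between pooled RPM values after adding 1 RPM, for genes that exceeded 10 RPM in 10% or more of the cells compared. Levels of different genes were compared per exonic base that no other gene shares. The genes named are the 7 members, the 3 genes most correlated with each, and list genes past 2-fold, of which some are not reported here. The members and lists were chosen with earlier results of these data known. Alternatives changed the pseudocount, threshold, depth (thinning every cell to equal mapped read pairs), library size (total counts, edgeR TMM, DESeq2 size factors), scale, single cells, library sets, correlation measure and exonic bases counted. Leaving out cells with markers of other cell types was added after seeing the data. The fold calculation was tested on simulated data. Work was done in R 4.3.3 with DESeq2 1.42.0 and edgeR 4.0.16, and in Python 3.11.15 with scipy 1.17.1, pandas 2.3.3, numpy 2.4.6 and matplotlib 3.10.9. Promoter windows came from RefSeq, and protein sequences were not used here.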

Additional observations from a re-analysis of the deposited data

How the results depend on the processing

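Counts of genes past 2-fold rested on few cells. Of the 7 genes, the count past 2-fold in P2 type 1 INs went from 5 to 3 with a pseudocount of 10 RPM, to 2 with means of log2 values and to 3 without the highest cell of the type. In P2 type 2 INs it went from 3 to 1 with 10 RPM and to 5 without the highest cell. In P5 type 2 INs it went from 2 to 1 with means of log2 values, to 7 in library set B and to 5 in set C, where the type has 2 and 3 cells. In P5 type 3 INs it went from 3 to 5 without the highest cell and in set C. For P2 against E18 it went from 1 to 0 with 10 RPM and to 2 without the highest P2 cell, and for P5 against E18 from 2 to 4 in set C. Dlx5 in P5 type 1 INs turned to -0.86 in set B. The 8 cells with all 4 sense genes became 17 at 5 RPM, 3 at 20 RPM and 99 at 1 read pair, and the 34 cells with none became 0 at 1 read pair. Pairs of members with r of at least 0.3 went from 1 to 8 in set C and 6 in set D at E18. At P2 they went from 1 to 2 with Spearman's rho and without the 2 farthest cells, and to 5 in cells with a read pair of both genes. At P5 they went from 2 to 1 in cells with both genes and without the 2 farthest cells, and to 5, 4 and 5 in sets B, C and D. In cells with both genes the 1 pair was another one, Dlx6 and Dlx6os2 at 0.59, while Dlx5 and Dlx6os1 were at 0.293 and Dlx6 and Dlx6os1 at 0.298. In set C r of Dlx6 and Dlx6os1 at P5 turned to -0.29. By read pairs with no length, Dlx1as exceeded Dlx1 in 0 groups and not in 2. The cause of these changes was not tested. Of 570 single log2 folds under an alternative, 490 stayed on their side of 2-fold. Of 252 shares of cells 50 moved beyond their interval, 46 of them at 1 read pair, and of 378 pooled levels 325 did. Thinning every cell to equal depth moved 0 of 63 shares, and pooled levels were not thinned. No paired analysis was possible because each age is 1 pool and cells carry no replicate number shared between groups, so that E18 and P5 cells were compared within library sets instead.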
